A study of Mus musculus with 6 samples.

Results

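The genes described here are the receptors for type I and type II interferon (Ifnar1, Ifnar2, Ifngr1 and Ifngr2), the Janus kinases that act on them (Jak1, Jak2 and Tyk2) and the suppressors of cytokine signaling Socs1, Socs2 and Socs3. They were chosen by symbol, with earlier results of these libraries known, and all 10 were among the 11835 genes with a listed transcript. All 10 also passed the filter on low values, so that they are 10 of the 11593 genes tested. The mRNA of C2C12 cells, an established line of mouse myoblasts, was sequenced after transfection with a negative control siRNA (siNC, 3 libraries) or with an siRNA against CNN3 (siCNN3, 3 libraries). Calponin 3, the product of Cnn3, is an actin-binding protein. Cells of both groups were grown in 10% fetal bovine serum and moved to 2% horse serum, which lets myoblasts fuse, and they differed by label in the siRNA alone. The labels name mouse myotubes as the cell type, the study's methods describe differentiating myoblasts, and no source used here says which CNN3 siRNA the sequenced cells received. The methods say that differentiating cells were transfected a second time and give a harvest time for differentiation assays, without tying it to the sequencing. Nothing says that the 3 libraries of a group came from separate experiments, so p-values measure the spread between these libraries, which may be technical.

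Type I interferons (interferon alpha and beta) bind a receptor made of IFNAR1 and IFNAR2, and interferon gamma binds one made of IFNGR1 and IFNGR2. The receptor chains have no enzyme activity of their own. TYK2 and JAK1 sit on the type I receptor and JAK1 and JAK2 on the interferon gamma receptor, where they phosphorylate STAT transcription factors that then bind interferon-stimulated genes at the ISRE or the GAS element. SOCS proteins, whose genes are themselves targets of cytokine signaling, bind activated kinases or receptors and damp the signal.

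The values are FPKM, which are scaled to transcript length, so that levels of different genes can be set beside each other. Each library summed to between 322621 and 355591 FPKM, and the number of reads behind them is unknown, so that no error of counting could be set beside a value. Cnn3 was listed at 62.8, 61.4 and 62.8 FPKM in siNC, against 19.0, 39.2 and 25.6 FPKM in siCNN3, a mean of 44.8% of siNC, and the groups did not overlap. Its difference of -1.19 in log2(FPKM + 1) did not pass the threshold (adjusted p = 0.0669, limma with Benjamini-Hochberg adjustment), but it did without siCNN3 library 2 (-1.46, adjusted p = 0.0475, limma). Cnn3 did not pass in the other 13 of the 14 alternatives (adjusted p = 0.0532 to 0.225, limma). Of the muscle markers 9 of 10 were listed, with summed FPKM of 142.3 to 168.2 in siNC and 118.8 to 125.9 in siCNN3. Of the 8 tested, 7 had a log2 difference below 0 and 1, Myf5, above it (5335 and 6258 of all 11593 genes tested). Lower without overlap were 5 of the 8, against 9.35% of all genes. The 1 that passed the threshold was Tnnt3, a fast muscle troponin, which was lower. It did not pass without siNC library 3 or without siCNN3 library 1 or 2. Nor did it pass without transcripts listed at exactly 0 in any library (log2 difference -0.79, adjusted p = 0.129, limma). Of the leukocyte markers 2 of 14 were listed (Cd68 and Lyz2, summed FPKM 4.72 to 10.2 in siNC and 2.81 to 4.04 in siCNN3), and Ptprc, which defines leukocytes, was not. Of the red blood cell markers 4 of 7 were listed, all of them hemoglobin genes, and their summed FPKM was 224.5 to 653.2 in siNC and 49.9 to 72.7 in siCNN3. Hbb-bs and Hbb-bt fell, and neither passed without siNC library 1 or 3 or siCNN3 library 1 or 2, nor did Hbb-bt without siCNN3 library 3. Of the endothelial markers 1 of 6 was listed (Tek, 0.681 to 1.37 FPKM in siNC and 0.733 to 1.24 in siCNN3), and of the adipocyte markers 0 of 4. The part of these markers in the results below was not tested, and in bulk RNA fewer cells of a type and less RNA per cell cannot be told apart.

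The region before a gene's start is where a STAT or interferon regulatory factor can act, so the RefSeq windows of the genes (GRCm38.p6, 250 bases before the start to 50 after it) were searched on both strands for the ISRE, taken as GAAA, any 2 bases and GAAA again, and for the GAS element, taken as TTCNNNGAA. Windows were found for 9 of the 10 genes, and that of Socs2 was not analysed here. The ISRE letters were in 1 of these 9 windows, that of Socs1, against 3.44% of all 32851 windows, and in 52.6% of the windows of the 19 interferon-stimulated genes that had one. The 250 bases before the start of Socs1 (chr16:10785537-10785786, minus strand) are shown because this is the SOCS gene with the largest difference described below, and those of Ifna4 (chr4:88841566-88841815, plus strand) because it is one of the listed ligand genes and also holds the ISRE. The capitals mark the ISRE matches, which begin 83 and 77 bases before the start of Socs1, where they overlap, and 208 and 118 bases before the start of Ifna4.
Socs1: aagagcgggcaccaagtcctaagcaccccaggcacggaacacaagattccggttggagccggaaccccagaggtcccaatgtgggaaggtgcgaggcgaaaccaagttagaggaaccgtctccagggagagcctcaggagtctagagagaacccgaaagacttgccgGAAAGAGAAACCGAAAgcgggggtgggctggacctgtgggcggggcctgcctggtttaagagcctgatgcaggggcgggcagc
Ifna4: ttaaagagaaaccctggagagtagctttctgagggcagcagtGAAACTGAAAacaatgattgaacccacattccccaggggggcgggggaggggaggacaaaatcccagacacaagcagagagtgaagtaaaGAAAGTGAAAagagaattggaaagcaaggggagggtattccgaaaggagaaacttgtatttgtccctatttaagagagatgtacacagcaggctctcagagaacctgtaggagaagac
The GAS letters were in 3 of the 9 windows, those of Ifnar1, Ifnar2 and Socs3, against 8.3% of all windows and 26.3% of those of the interferon-stimulated genes. They are shown with 10 bases on either side (Ifnar1 chr16:91485200-91485228 and Ifnar2 chr16:91372559-91372587 on the plus strand, Socs3 chr11:117969502-117969530 on the minus strand), with GAS in capitals, and they begin 5, 214 and 154 bases before the start in that order.
Ifnar1: ggcgggggcgTTCACGGAAggggcggggc
Ifnar2: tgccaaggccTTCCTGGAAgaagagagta
Socs3: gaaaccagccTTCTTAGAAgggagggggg
The windows of Jak1, Jak2, Tyk2, Ifngr1, Ifngr2 and Ifnb1 held neither set of letters. A match describes the letters of a window and does not show binding.

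None of the 10 genes passed the threshold in either direction (0 of 10 higher and 0 of 10 lower, adjusted p under 0.05 in limma with Benjamini-Hochberg adjustment), where 1.73% of all genes tested rose and 0.336% fell. The groups overlapped for every one of them (0 of 10 without overlap), compared with 13.8% of all genes that were higher and 9.35% that were lower without overlap. At an unadjusted p under 0.05 there was 1, Socs1, which was higher, against 9.94% of all genes higher and 6.14% lower. The log2 differences were above 0 for 4 genes (Ifnar2, Jak1, Jak2 and Socs1, with Jak1 at -0.013 after quantile normalization) and below 0 for 6, with a median of -0.078, where the median over all genes tested was 0.028. These differences are in log2(FPKM + 1), siCNN3 minus siNC, and understate the change of genes with low values.

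**Figure D1:**
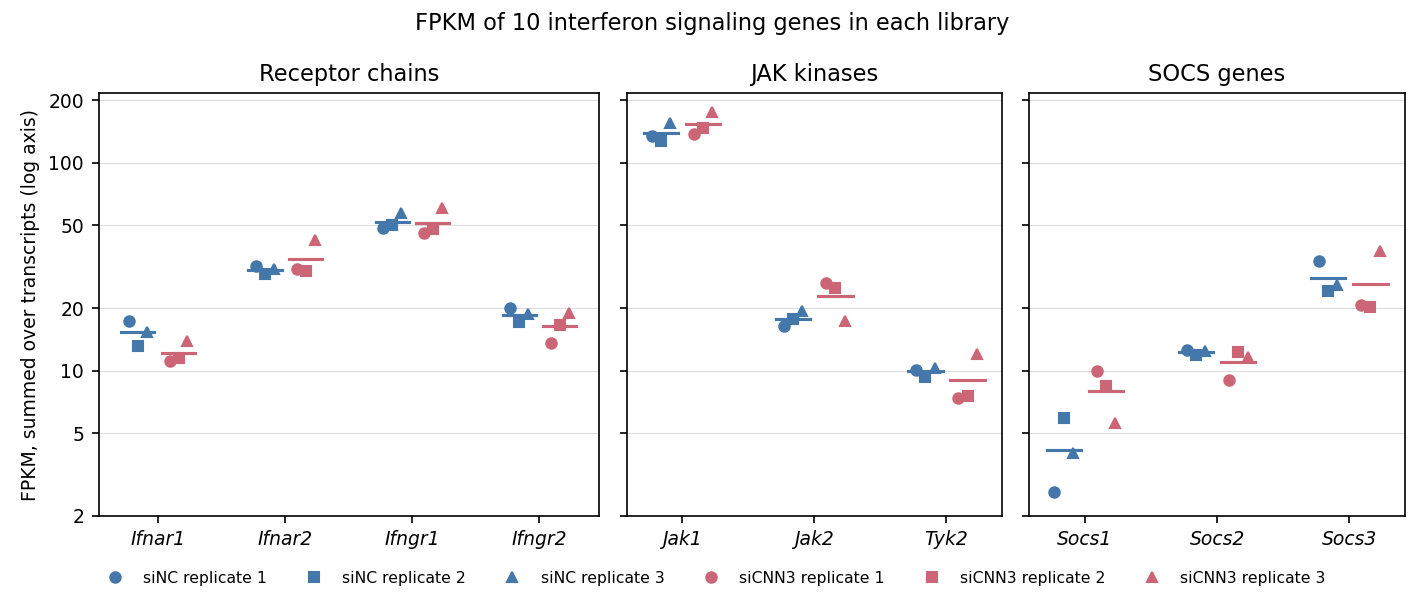
FPKM of the 10 genes (log axis) in each of the 3 siNC and 3 siCNN3 libraries, with points for libraries and lines for group means. Jak1 lay at 127.7 to 174.8 FPKM and Socs1 at 2.59 to 9.98 FPKM, and for every gene the points of the groups overlapped.

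Few of the ligands were found. Of 21 interferon ligand genes 3 were listed (Ifnb1, Ifna4 and Ifng), and 0 other symbols beginning with Ifn were found apart from the receptors. Ifnb1, which encodes interferon beta and has no introns (chr4:88522025-88522774, minus strand), was listed at 0, 0.225 and 0 FPKM in siNC, against 6.60, 7.78 and 1.01 FPKM in siCNN3. All siCNN3 libraries were above all siNC libraries, and library 3 was far below the other two. The log2 difference was 2.26 (SE 0.54, adjusted p = 0.0976, limma), and without siCNN3 library 3 it was 2.93 (adjusted p = 0.00140, limma). Leaving out any of the other 5 libraries gave 1.87 to 2.36 (adjusted p = 0.189 to 0.306, limma), and a pseudocount of 0.1 gave 4.71 (adjusted p = 0.0533, limma). Ifnb1 reached the filter on low values through the siCNN3 libraries alone, so these values describe the libraries and are not support for a difference.

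Ifna4, one of the interferon alpha genes (chr4:88841861-88842421, plus strand), was listed at 0 in all siNC libraries and at 2.08, 2.52 and 0.137 FPKM in siCNN3. Again siCNN3 library 3 was the lowest of its group. It did not pass (adjusted p = 0.220, limma), and it is uncertain because the alpha genes are near-identical copies that share reads. Ifng, the ligand of the type II receptor (chr10:118441046-118445892, plus strand), was listed at 0.695, 0.867 and 0.158 FPKM in siNC, against 0.194, 0.390 and 0.420 FPKM in siCNN3. The groups overlapped, and its mean was under the 0.5 FPKM needed to be tested. Ifna4, like Ifnb1, passed that filter through the siCNN3 libraries alone.

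The type I receptor chains differed in which group had the higher mean. Ifnar1, which holds TYK2, was at 17.3, 13.2 and 15.4 FPKM in siNC and 11.1, 11.4 and 13.9 FPKM in siCNN3. The siCNN3 libraries 1 and 2 were below all siNC libraries, and library 3 lay within their range. The means were 15.3 ± 2.05 and 12.1 ± 1.53 FPKM (SD, n = 3), and the log2 difference was -0.31 (95% interval -0.68 to 0.058, adjusted p = 0.381, limma).

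Ifnar2, the chain that binds type I interferon most tightly and holds JAK1, was at 31.9, 29.2 and 30.8 FPKM in siNC and 30.7, 30.3 and 42.6 FPKM in siCNN3. Only siCNN3 library 3 lay above the siNC libraries, and the other libraries of both groups were within 29.2 to 31.9 FPKM. The means were 30.6 ± 1.39 and 34.5 ± 7.01 FPKM (SD, n = 3), and the log2 difference was 0.15 (95% interval -0.22 to 0.53, adjusted p = 0.687, limma). Without siCNN3 library 3 it was -0.0058.

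The FPKM ratio of Ifnar2 to Ifnar1 was 1.85, 2.21 and 2.00 in siNC and 2.77, 2.65 and 3.07 in siCNN3. All siCNN3 libraries were higher, library 3 included, and this was the one ratio of the 8 computed between the genes whose groups did not overlap. It is singled out after its values were seen. The means were 2.02 ± 0.182 and 2.83 ± 0.217 (SD, n = 3), with p = 0.1 in a two-sided exact permutation test, the smallest that 3 against 3 allows, and 0.48 after adjustment over the 8 ratios.

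For both chains of the interferon gamma receptor the siCNN3 mean was close to or below the siNC mean, within the spread of the libraries. Ifngr1, the chain that binds interferon gamma and holds JAK1, was at 48.4, 50.1 and 57.4 FPKM in siNC and 45.7, 48.3 and 60.3 FPKM in siCNN3. The siCNN3 libraries spanned the whole range of the siNC libraries. The means were 51.9 ± 4.79 and 51.4 ± 7.80 FPKM (SD, n = 3), and the log2 difference was -0.020 (95% interval -0.36 to 0.32, adjusted p = 0.961, limma).

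Ifngr2, the chain that holds JAK2, was at 19.9, 17.1 and 18.7 FPKM in siNC and 13.6, 16.5 and 18.9 FPKM in siCNN3. Libraries 1 and 2 of siCNN3 were below all siNC libraries, and library 3 was within them. The log2 difference was -0.18 (95% interval -0.54 to 0.18, adjusted p = 0.597, limma), and it was -0.068 without siCNN3 library 1 and -0.29 without library 3. The ratio of Ifngr1 to Ifngr2 averaged 2.81 ± 0.336 in siNC and 3.16 ± 0.214 in siCNN3 (SD, n = 3), with overlapping groups (p = 0.3, two-sided exact permutation test, 0.48 adjusted over the 8 ratios).

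Of the receptor genes 3 lie beside each other on chromosome 16, all on the plus strand of GRCm38: Ifnar2 (91372783 to 91405589), Ifnar1 (91485238 to 91507441) and Ifngr2 (91547072 to 91565623), with Il10rb between the first pair. Il10rb encodes the shared chain of the receptors for IL-10, IL-22 and interferon lambda. It was at 14.4, 13.8 and 14.5 FPKM in siNC and 11.8, 13.5 and 13.6 FPKM in siCNN3, with a log2 difference of -0.13 (adjusted p = 0.656, limma). Ifngr1 lies apart from them on chromosome 10 (19591949 to 19610229, plus strand).

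Jak1 had the highest level of the 10 genes, above 97.0% of all genes tested by mean FPKM. This kinase serves both interferon receptors and many interleukin receptors (chr4:101152367-101265282, minus strand). It was at 134.7, 127.7 and 156.0 FPKM in siNC and 138.4, 146.8 and 174.8 FPKM in siCNN3. Library 3 was the highest of each group, and the groups overlapped. The means were 139.4 ± 14.7 and 153.4 ± 19.1 FPKM (SD, n = 3), and the log2 difference was 0.13 (95% interval -0.18 to 0.45, adjusted p = 0.662, limma). After quantile normalization it was -0.013, and leaving out a library gave 0.037 (siCNN3 library 3) to 0.22 (siNC library 3).

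Jak2, which serves the interferon gamma receptor and the receptors for growth hormone and erythropoietin (chr19:29251828-29313080, plus strand), was at 16.3, 17.8 and 19.3 FPKM in siNC and 26.3, 24.8 and 17.3 FPKM in siCNN3. Libraries 1 and 2 of siCNN3 were above all siNC libraries, and library 3 was within them. The means were 17.8 ± 1.5 and 22.8 ± 4.85 FPKM (SD, n = 3), and the log2 difference was 0.32 (95% interval -0.11 to 0.75, adjusted p = 0.432, limma). Without siCNN3 library 3 it was 0.50 (adjusted p = 0.0879, limma), which did not pass either.

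Tyk2, the kinase of IFNAR1 (chr9:21104068-21131243, minus strand), was at 10.1, 9.29 and 10.3 FPKM in siNC and 7.35, 7.56 and 12.1 FPKM in siCNN3. Its siCNN3 libraries lay on both sides of the siNC libraries, with 1 and 2 below and 3 above. The log2 difference was -0.16 (95% interval -0.63 to 0.32, adjusted p = 0.748, limma), and it was -0.37 without siCNN3 library 3 (adjusted p = 0.167, limma), -0.042 without library 1 and -0.061 without library 2. The ratio of Jak2 to Tyk2 was 1.62, 1.92 and 1.87 in siNC and 3.58, 3.29 and 1.43 in siCNN3, so that siCNN3 library 3 was the lowest of all and the other two the highest (p = 0.4, two-sided exact permutation test, 0.53 adjusted over the 8 ratios).

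Socs1 had the lowest level of the 10 genes and the largest difference. SOCS1 inhibits JAK1, JAK2 and TYK2, and its gene (chr16:10782240-10785536, minus strand), whose window before the start holds the ISRE pair shown above, is a known target of interferon signaling. It was at 2.59, 5.90 and 3.996 FPKM in siNC and 9.98, 8.41 and 5.57 FPKM in siCNN3. Libraries 1 and 2 of siCNN3 were above all siNC libraries, while library 3 was just below siNC library 2. The means were 4.16 ± 1.66 and 7.99 ± 2.23 FPKM (SD, n = 3), so that siCNN3 was at 192% of siNC. The log2 difference of 0.82 (SE 0.29, 95% interval 0.12 to 1.52) had an unadjusted p of 0.0274 and did not pass after adjustment (adjusted p = 0.238, limma). Of all genes tested, 5.65% had a larger log2 difference in either direction.

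Socs2, best known as a brake on growth hormone signaling (chr10:95385362-95417180, minus strand), was at 12.5, 11.9 and 12.4 FPKM in siNC and 9.03, 12.3 and 11.7 FPKM in siCNN3. Library 1 of siCNN3 stood below the rest, which were within 11.7 to 12.5 FPKM. The log2 difference was -0.16 (95% interval -0.51 to 0.20, adjusted p = 0.656, limma), and it was -0.030 without siCNN3 library 1 and -0.24 without library 2.

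Socs3, which inhibits signaling of the IL-6 family through gp130 (chr11:117966079-117970047, minus strand), was at 33.9, 24.2 and 25.9 FPKM in siNC and 20.7, 20.2 and 37.5 FPKM in siCNN3. As for Tyk2, siCNN3 libraries 1 and 2 were below all siNC libraries and library 3 above them. The means were 28.0 ± 5.18 and 26.2 ± 9.85 FPKM (SD, n = 3), and the log2 difference was -0.14 (95% interval -0.75 to 0.48, adjusted p = 0.838, limma). The ratio of Socs1 to Socs3 was 0.0764, 0.244 and 0.155 in siNC and 0.482, 0.415 and 0.148 in siCNN3, with overlapping groups (p = 0.3, two-sided exact permutation test, 0.48 adjusted over the 8 ratios).

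**Figure D2:**
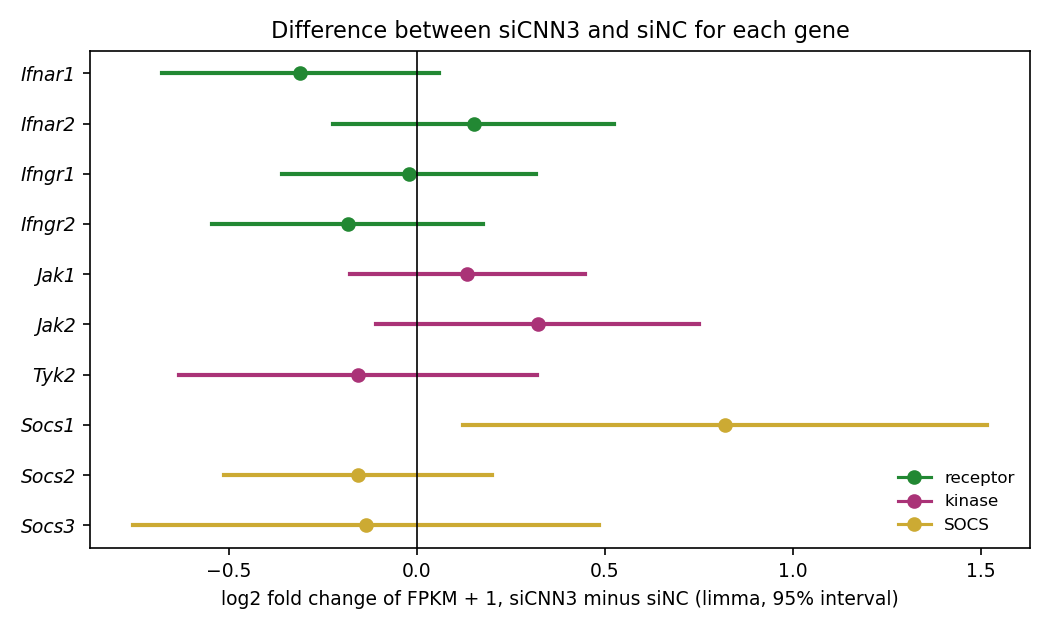
Difference in log2(FPKM + 1) between siCNN3 and siNC for each of the 10 genes, with points for the limma estimate and bars for its 95% interval. The interval of Socs1 runs from 0.12 to 1.52 and does not reach 0, and the intervals of the other 9 genes all include 0.

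The libraries of siCNN3 differed among themselves over these genes. Library 3 held the highest value of all libraries for 5 genes (Ifnar2, Ifngr1, Jak1, Tyk2 and Socs3) and the lowest for 0. Library 1 held the lowest value for 5 genes (Ifnar1, Ifngr1, Ifngr2, Tyk2 and Socs2) and the highest for Jak2 and Socs1. Without siCNN3 library 3, 4 of the 10 genes had an unadjusted p under 0.05 and 0 passed after adjustment, while over all 11593 genes 1651 were then higher and 1154 lower at an unadjusted p under 0.05, compared with 1152 and 712 with all libraries. After adjustment 444 rose and 161 fell, compared with 200 and 39. The 4 genes at an unadjusted p under 0.05 in that setting were Socs1 (1.03, adjusted p = 0.109), Jak2 (0.50, adjusted p = 0.0879), Ifnar1 (-0.40, adjusted p = 0.185) and Tyk2 (-0.37, adjusted p = 0.167), all by limma. Socs3 had a larger difference than Ifnar1 and Tyk2 (-0.42, adjusted p = 0.209, limma) but was not among the 4.

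The order of levels in siNC was Jak1, Ifngr1, Ifnar2, Socs3, Ifngr2, Jak2, Ifnar1, Socs2, Tyk2 and Socs1. Neighbours in it whose ranges over the 3 libraries overlapped were Ifnar2 and Socs3, Ifngr2 and Jak2, and Jak2 and Ifnar1. In siCNN3 the order was Jak1, Ifngr1, Ifnar2, Socs3, Jak2, Ifngr2, Ifnar1, Socs2, Tyk2 and Socs1, where Jak1 was clear of Ifngr1 and Ifngr1 of Ifnar2, and all later neighbours overlapped. By mean FPKM, Ifngr1 lay above 89.6%, Ifnar2 above 82.2%, Tyk2 above 48.5% and Socs1 above 34.7% of all genes tested.

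Some of the genes have several transcript models. Of 59 annotated transcripts of the 10 genes 20 were listed, and 5 genes had more than 1. Of the 19 that reached the filter of 0.5 FPKM, 0 were called higher and 0 lower, against 0.462% and 0.0785% of all 21658 transcripts tested. At an unadjusted p under 0.05 there was 1 higher, the single Socs1 model, and 0 lower, against 6.80% and 3.91% of all transcripts. Groups without overlap were seen for 0 higher and 1 lower, against 10.4% and 7.54% of all transcripts. The 1 was Ifnar1-201, the main Ifnar1 model, at 14.6, 12.7 and 13.2 FPKM in siNC and 9.22, 10.1 and 12.1 FPKM in siCNN3. Its log2 difference was -0.34 (unadjusted p = 0.0664, adjusted p = 0.493, limma).

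The models of Ifnar2 differ in the protein they encode, since Ifnar2-201 has 513 codons, while Ifnar2-202 has 247 and Ifnar2-203 has 248. All 741 coding bases of Ifnar2-202 and 709 of the 744 of Ifnar2-203 are shared with Ifnar2-201. Short forms of IFNAR2 without the full cytoplasmic part are known in mouse, some of them soluble. Ifnar2-201 was at 7.92, 11.4 and 10.7 FPKM in siNC and 8.78, 9.60 and 8.77 FPKM in siCNN3. Ifnar2-203 was at 19.3, 15.0 and 16.2 FPKM in siNC and 17.7, 18.0 and 30.6 FPKM in siCNN3, and the high value of Ifnar2 in siCNN3 library 3 was in this model. The 2 short models held 63.9 ± 6.25% of Ifnar2 FPKM in siNC and 70.9 ± 4.21% in siCNN3 (SD, n = 3), with overlapping groups (p = 0.3, two-sided exact permutation test, 0.6 adjusted over the 6 shares computed).

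The listed models of Ifnar1, Jak2 and Socs2 encode the same coding bases within each gene (1770, 3396 and 594). For Socs2 the share of Socs2-213 was 52.7%, 11.2% and 8.15% in siNC and 75.9%, 15.7% and 13.2% in siCNN3, so that library 1 of each group stood apart from the others. For Tyk2, Tyk2-203, whose 3552 coding bases all lie within the 3621 of Tyk2-206, held 11.0%, 12.9% and 11.3% in siNC and 14.2%, 66.8% and 16.01% in siCNN3. The groups did not overlap (p = 0.1, two-sided exact permutation test, 0.6 adjusted over the 6 shares), and siCNN3 library 2 was far above the rest. Models this alike share most of their bases, and how reads were divided between them is not given in the sources used here.

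**Figure D3:**
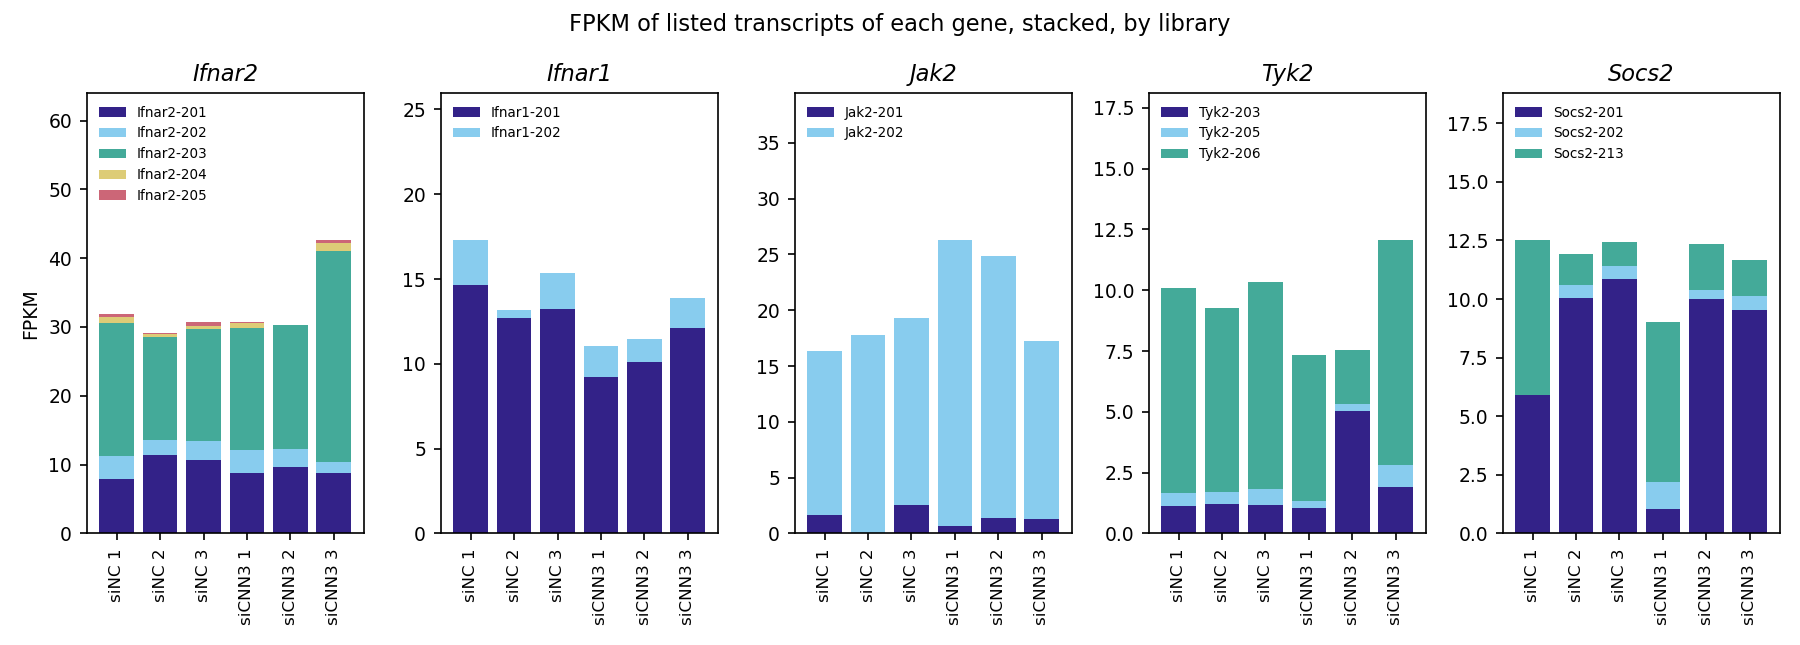
FPKM of the listed transcript models of the 5 genes that have more than 1, stacked in a bar for each library, so that the height of a bar is the summed FPKM of the gene. Ifnar2-203 reached 30.6 FPKM in siCNN3 library 3, and siCNN3 library 2 had Tyk2-206 at 2.26 FPKM and Tyk2-203 at 5.05 FPKM.

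Other genes of the same pathway are given by counts. Of 33 receptor chains for other cytokines that signal through Janus kinases, 17 were listed and 16 tested, of which 0 rose and 0 fell (2 higher and 3 lower at an unadjusted p under 0.05), with a median log2 difference of -0.099. Of 21 further Janus kinase, SOCS and inhibitor genes, 20 were listed and 19 tested, with Cish not listed, and 0 rose and 0 fell (2 higher and 0 lower at an unadjusted p under 0.05), with a median of 0.034. One gene among them, singled out after its values were seen, is Usp18, which encodes a protease that binds IFNAR2 and blocks JAK1. It was at 0.412, 17.3 and 2.91 FPKM in siNC and 170.1, 167.2 and 66.8 FPKM in siCNN3. The groups were far apart and the siNC libraries differed widely, and the log2 difference of 4.74 (SE 0.89) did not pass (adjusted p = 0.0525, limma). It passed without siNC library 2 (adjusted p = 0.0148, limma), without siCNN3 library 3 (adjusted p = 0.0466, limma) and with a filter at a mean of 5 FPKM (adjusted p = 0.0471, limma). In the other 11 of the 14 alternatives Usp18 did not pass (adjusted p = 0.0520 to 0.198, limma).

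Of 28 cytokines that signal through these other receptors, 9 were listed and tested, and 2 (Il15 and Il6) passed as higher and 0 as lower. Il15, whose receptor uses JAK1 and JAK3, was at 0.381, 0.223 and 0.365 FPKM in siNC and 3.91, 3.46 and 2.63 FPKM in siCNN3 (log2 difference 1.70, adjusted p = 0.00990, limma). Its siNC mean was under 0.5 FPKM, so that it was tested only through its siCNN3 libraries and its p is not support for a difference, and without transcripts listed at exactly 0 in any library the log2 difference was 0.84 (adjusted p = 0.127, limma), while with a pseudocount of 0.1 it was 3.02 (adjusted p = 0.0117, limma). Il6, a cytokine that myotubes secrete, was at 13.2, 7.59 and 5.66 FPKM in siNC and 30.6, 30.7 and 26.7 FPKM in siCNN3 (log2 difference 1.70, adjusted p = 0.0333, limma). Il15 did not pass without siNC library 3 or siCNN3 library 2, and Il6 did not pass without siNC library 2 or 3 or siCNN3 library 1 or 2, nor after median-of-ratios scaling or quantile normalization.

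Downstream of the receptors, among the interferon regulatory factors, Irf7, which amplifies interferon production, rose by 4.36 on the log2 scale (adjusted p = 0.0305, limma), and Irf5, a factor downstream of Toll-like receptors, rose by 1.73 (adjusted p = 0.0170, limma). Neither passed without siNC library 3 or siCNN3 library 1 or 2, nor did Irf5 without siNC library 1.

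Of 26 interferon-stimulated genes, a list made with results of these libraries known and so no independent evidence of a direction, 19 rose and 0 fell, and their median log2 difference was 3.72, with 25 of 26 higher without overlap. The largest differences among those that rose were in Cxcl10, a chemokine (6.30, adjusted p = 0.0152, limma), Ifit3, an antiviral protein (5.88, adjusted p = 0.0491, limma), and Oas1a, a sensor of double-stranded RNA (5.02, adjusted p = 0.0144, limma). None of these 3 passed without siNC library 1 or 3 or siCNN3 library 1 or 2, nor did Ifit3 without siCNN3 library 3. The number that rose was 1 without siNC library 3, 3 without siCNN3 library 2, 5 without siCNN3 library 1 and 8 without siNC library 1. It was 21 without siNC library 2, 20 without siCNN3 library 3 and 11 without transcripts listed at exactly 0. Of the 19, 3 (Oas2, Psmb8 and Psmb9) had a siNC mean under 0.5 FPKM and were tested only through their siCNN3 libraries. The mean log2 level of all 26 genes relative to the mean of siNC was -0.99, 1.07 and -0.081 in the siNC libraries and 4.16, 4.37 and 3.23 in the siCNN3 libraries. Socs1 was ordered by library in the same way within each group except for siCNN3 libraries 1 and 2.

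**Figure D4:**
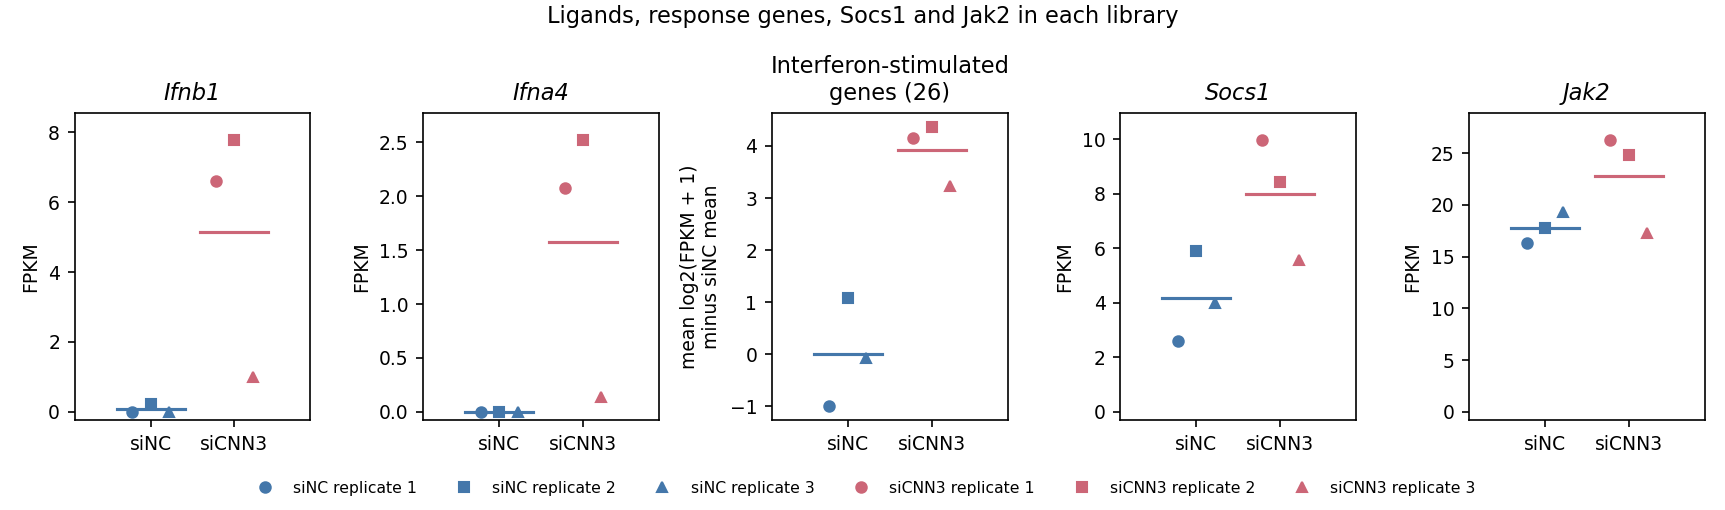
Levels in each library of Ifnb1, Ifna4, Socs1 and Jak2 (FPKM) and of the 26 interferon-stimulated genes (mean log2 relative to the siNC mean), with points for libraries and lines for group means. Ifnb1 was at 0 or 0.225 FPKM in siNC, against 1.01 to 7.78 FPKM in siCNN3, and siCNN3 library 3 was the lowest of its group for Ifnb1, Ifna4, Socs1, Jak2 and the mean of the interferon-stimulated genes.

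Genes with the most similar pattern over the 6 libraries were taken for the member of each role with the largest difference, by Pearson's r of log2(FPKM + 1). For Ifnar1 they were Itgav (r = 0.995), Rb1 (r = 0.991) and Polr3gl (r = 0.991), with 347 genes over 0.9. For Jak2 they were Phf10 (r = 0.998), Vps13b (r = 0.995) and Mfsd6 (r = 0.992), with 624 genes over 0.9. For Socs1 they were Hist1h2ag (r = 0.998), Phyh (r = 0.997) and Parp9 (r = 0.997), with 1103 genes over 0.9. With 6 points that share libraries and groups, these values describe likeness alone.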

How the data were processed

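RNA of C2C12 cells was sequenced in 3 siNC and 3 siCNN3 libraries, and the authors deposited FPKM values of 24023 Ensembl transcripts per library. The submitters' processing notes name Bowtie 0.12.2 and the builds mm8 and mm10 with no role. The program that estimated FPKM, its annotation and the read numbers are not given in the sources used here, so depth is unknown.

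Transcript identifiers were matched without their version to GENCODE M21 (GRCm38, the same assembly as mm10), which matched 23949, compared with 22790 with the version, and the other 74 (0.159% to 0.220% of a library's FPKM) were left out. FPKM was summed over the transcripts of a gene symbol (6066 of 11835 genes had more than 1). Genes were tested where their mean over the libraries reached 0.5 FPKM. The fit used limma 3.58.1 (R 4.3.3) on log2(FPKM + 1), with a trend of variance on mean, all 6 libraries and no covariate. P-values were adjusted over all 11593 genes by Benjamini-Hochberg, with a threshold of 0.05. Transcripts were fitted the same way. Scripts were tested on simulated data. Ratios and isoform shares were compared by two-sided exact permutation tests (scipy 1.17.1), which cannot go below 0.1 for 3 against 3.

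Alternatives were a pseudocount of 0.1, quantile normalization, median-of-ratios scaling, no filter, a minimum mean of 5 FPKM, a replicate block, limma without its trend, a sum without transcripts listed at exactly 0 in any library, and leaving out each library. The genes named were the 10 members, the listed interferon ligands, Cnn3, the 3 called genes with the largest difference of each further list, and the genes most alike to 3 members. One further result is not reported here. The members and lists were chosen with earlier results of these data known.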

Additional observations from a re-analysis of the deposited data

How the results depend on the processing

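None of the 10 genes passed under any of the 14 alternatives, and none of their transcripts under any of 13. Over the alternatives the log2 difference of Socs1 ranged from 0.58 to 1.05 (adjusted p = 0.109 to 0.592, limma), that of Jak2 from 0.21 to 0.50 (adjusted p = 0.0879 to 0.809, limma) and that of Ifnar1 from -0.40 to -0.22. The sign turned for Jak1 after quantile normalization (-0.013), and, when a library was left out, for Ifnar2 (-0.0058 to 0.23), Ifngr1 (-0.14 to 0.058) and Socs3 (-0.42 to 0.013), and the cause was not tested. Leaving out a library gave -0.29 to -0.068 for Ifngr2, -0.37 to -0.042 for Tyk2, -0.24 to -0.030 for Socs2 and 0.037 to 0.22 for Jak1. At the call rate of all genes a count of 0 among 10 genes says little about stability, and the number of them at an unadjusted p under 0.05 ranged from 0 to 4. Over all genes that number was 749 higher and 401 lower without siCNN3 library 2, 1651 and 1154 without siCNN3 library 3, and 1252 lower after quantile normalization. Of all genes, 93 fell with quantile normalization and 63 with median-of-ratios scaling, so that 68.2% and 77.7% of the called genes were higher, compared with 83.7% in the values reported. Without transcripts listed at exactly 0, 125 genes rose. Leaving out a library gave 16 to 444 genes that rose and 4 to 161 that fell, with the fewest that rose without siNC library 3, the fewest that fell without siNC library 3 or siCNN3 library 2, and the most of both without siCNN3 library 3. Besides the leave-one-out settings, calls of named genes were lost as follows, by limma. Without transcripts listed at exactly 0, Il15 (adjusted p = 0.127), Tnnt3 (0.129), Irf5 (0.0508), Ifit3 (0.0604) and Hbb-bt (0.0605) did not pass. With a pseudocount of 0.1, Irf7 (0.0506) and Ifit3 (0.0545) did not. With no filter, Ifit3 (0.0510) and Hbb-bt (0.0515) did not, nor without the trend (0.0548 and 0.0577). Il6 did not pass with median-of-ratios scaling (0.0506) or quantile normalization (0.0561). The number of interferon-stimulated genes that rose was 11 to 19 over the settings with all 6 libraries, with 11 under the block and without transcripts listed at exactly 0. A filter at 5 FPKM left out Ifnb1, Ifna4, Il15 and Irf5. With the replicate number as a block, 62 genes rose and 6 fell, Socs1 had an adjusted p of 0.351, and Il6 (0.0557), Irf7 (0.0565), Irf5 (0.0796), Tnnt3 (0.0533), Hbb-bt (0.0556) and Ifit3 (0.0678) did not pass (limma). The labels link libraries of the groups by number alone. Correlations of deviations from the group means were -0.28, 0.31 and -0.025 for libraries with the same number. For libraries with different numbers they ran from -0.45 to 0.44. With 3 libraries in a group these values cannot tell whether libraries with the same number were paired. FPKM without read numbers leaves the counting error of low genes such as Socs1, Ifnb1 and Ifna4 unknown.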
